A study of Mus musculus with 18 samples.

Results

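A set of genes known from neutrophils, or from the signals that draw neutrophils into tissue, were followed across mammary tumours and normal mammary gland of the mouse. The 10 genes, measured by 12 of the 41174 probes and counted among 28919 genes in all, are S100a8, S100a9, Lcn2, Stfa2l1, Cstdc6, Bst1, Il1b, Cxcl1, Cxcl2 and Cxcl5. They were chosen by their measured values in these samples, so their levels and differences below are a description and carry no p-value. The samples were 5 single tumours of ErbB2 knock-in mice (called KI), 2 pools of 5 NIC tumours each, and 2 normal mammary glands, all from female FVB/N mice and all whole tissue. ErbB2 is a receptor tyrosine kinase that drives mammary tumours when active. As background from the field, the knock-in line expresses an activated ErbB2 from the gene's own promoter after Cre recombination, and the NIC transgene expresses activated ErbB2 and Cre together from a mammary tumour virus promoter. The labels give only the names of both lines. Each RNA was hybridised on 2 arrays against a shared mouse reference, with either dye in turn, which made 18 arrays.

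Neutrophils are short-lived white cells made in bone marrow under granulocyte colony-stimulating factor, the product of Csf3. They follow chemokines of the CXC family, among them the products of Cxcl1, Cxcl2 and Cxcl5, which act through the receptor Cxcr2. Interleukin 1 beta, made by myeloid cells and cleaved by caspase 1, raises the output of such chemokines in many cell types. The calcium-binding pair S100a8 and S100a9 and the mouse stefins, which inhibit cysteine proteases, are abundant in mouse neutrophils, and keratinocytes under stress also make S100a8 and S100a9.

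The promoters of the chemokine genes are shown because several members moved together. RefSeq promoter sequences of the reference mouse genome (build GRCm38.p6, 250 bases before to 50 bases after the gene start) were given for 7 members: S100a8, S100a9, Lcn2, Stfa2l1, Il1b, Cxcl1 and Cxcl2. The stretches below hold GGGNNTTTC, most of the consensus bound by NF-kappa B, searched on both strands. Capitals mark the matches, and each stretch runs 5′ to 3′ on the strand of its gene.
Cxcl1 promoter, chr5:90891127-90891272, + strand: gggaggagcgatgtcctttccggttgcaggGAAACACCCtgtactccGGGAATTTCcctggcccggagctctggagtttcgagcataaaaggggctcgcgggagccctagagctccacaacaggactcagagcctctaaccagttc
Cxcl2 promoter, chr5:90903772-90903919, + strand: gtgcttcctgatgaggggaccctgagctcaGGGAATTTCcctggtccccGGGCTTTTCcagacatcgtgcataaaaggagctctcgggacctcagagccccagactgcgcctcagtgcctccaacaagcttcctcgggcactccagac
S100a9 promoter, chr3:90695758-90695886, - strand: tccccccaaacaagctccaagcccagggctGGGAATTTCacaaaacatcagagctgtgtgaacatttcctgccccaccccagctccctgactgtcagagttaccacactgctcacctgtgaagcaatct
The letters GGGAATTTC stand in all 3 promoters and begin 71 bases before the gene start in Cxcl1, 97 bases before it in Cxcl2 and 135 bases before it in S100a9. GGGNNTTTC was found in 3 of the 7 member promoters and in 4.4% of the 32851 promoters of the same table. TTNNGNAA, letters bound by C/EBP factors of myeloid cells, was found on either strand in 6 of the 7, all but that of Cxcl1, and in 40.7% of all promoters. In S100a9 a match of TTNNGNAA overlaps that of GGGNNTTTC. These matches are letters in a window and were not read as binding sites.

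Before the levels, the arrays of 2 RNA samples need a remark. The arrays of a dye pair are labelled as the same RNA and correlated over all genes at r = 0.875 to 0.941 in 7 of the 9 RNA samples. They correlated at only 0.828 in NIC pool 1 and 0.816 in normal gland 2, and gaps over 4-fold (2 log2 units) occurred in 0.861% and 1.4% of genes there, against 0.0311% to 0.145% elsewhere. Members were hit: S100a8 was read at -0.39 by the Cy5 array and -4.29 by the Cy3 array of NIC pool 1, and at -2.49 and 0.31 by those of normal gland 2. NIC pool 1 also gave 3.54 by Cy5 and 0.24 by Cy3 for S100a9. In NIC pool 1 and normal gland 2 an array of another RNA came closer to one of the pair (0.904 and 0.901) than its partner did, and the same held for KI tumour 4 (0.895, against 0.875 within the pair). Whether each of these pairs holds 1 RNA was not tested. The differences of each member but Lcn2 are therefore also given without NIC pool 1 and normal gland 2, which leaves 1 sample in each of those groups. Values of KI tumours lie in another deposited table, under another array platform record, than those of the other samples. Table, platform record and KI group therefore cannot be told apart. In whole tissue, fewer cells of a type and less RNA per cell cannot be told apart either.

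**Figure D1:**
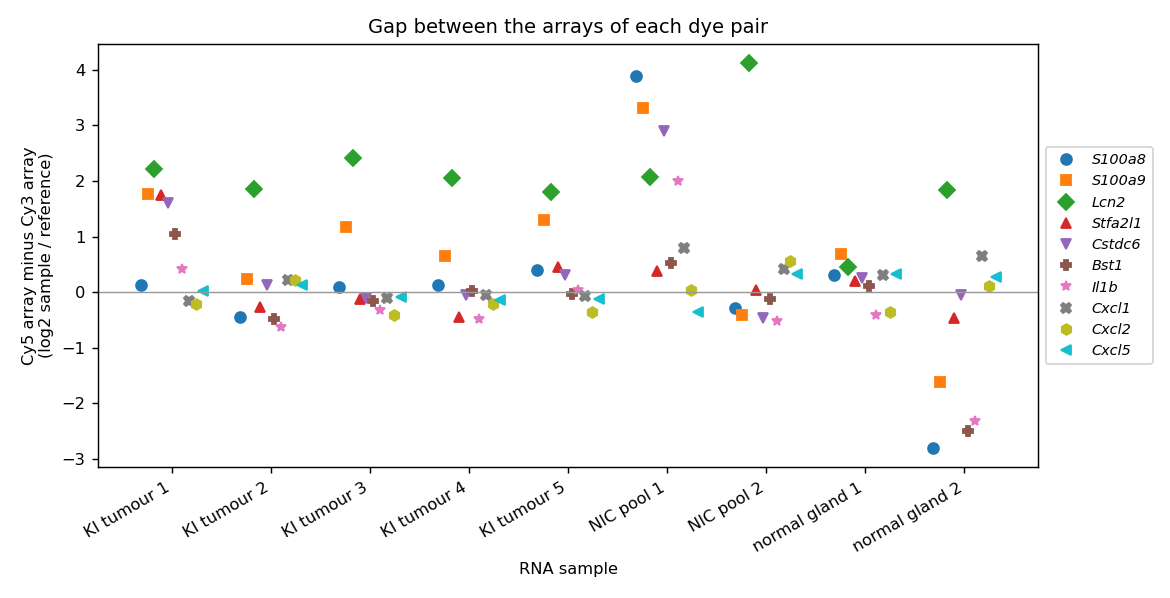
Gap between the Cy5 and the Cy3 array of each RNA sample (vertical axis, log2 units) for the 10 genes, with KI tumours left of NIC pools and normal glands. In NIC pool 1 the gaps reach 3.90 for S100a8, in normal gland 2 they reach -2.80 for the same gene, and Lcn2 stands apart in most samples.

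S100a8 was high in every KI tumour compared with the other samples. Its product pairs with that of S100a9 as calprotectin, the main cytosolic protein complex of neutrophils. The S100a8 level, as log2 of sample over reference, was 2.84, 0.56, 3.46, 3.15 and 4.04 in KI tumours 1 to 5, -2.34 and -0.43 in NIC pools 1 and 2, and -2.23 and -1.09 in normal glands 1 and 2. The lowest KI tumour, number 2, still lay above both other groups. The KI mean exceeded the normal mean by 4.47 ± 0.95 (SE), a 22.2-fold difference, and the NIC mean by 4.20 ± 0.95, or 18.3-fold. With NIC pool 1 and normal gland 2 left out, the differences were 5.04 against normal and 3.24 against NIC. Between NIC and normal the difference was 0.28 ± 0.83, and across alternative settings it ran from -1.25 to 1.80, turning sign in 6 of 17.

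S100a9 had a different pattern in the reference tissues. Its level was 4.97, 0.51, 5.29, 4.45 and 5.24 in KI tumours 1 to 5, 1.89 and 1.02 in the NIC pools, and 2.46 and 3.02 in the normal glands. KI tumours 1, 3, 4 and 5 lay above both other groups, and KI tumour 2 lay below the means of all of them, though above the Cy3 array of NIC pool 1 (0.24). The KI mean was 1.35 ± 1.26 above normal and 2.64 ± 1.26 above NIC, and without KI tumour 2 these became 2.25 and 3.53. Without NIC pool 1 and normal gland 2 they were 1.63 and 3.07, and against normal gland 2 by its Cy3 array alone 0.95. The NIC mean was 1.29 ± 0.39 below normal. That difference kept its sign with either array of NIC pool 1 alone, at -0.46 by Cy5 and -2.11 by Cy3.

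The stefin genes split the KI tumours as S100a9 did. Stfa2l1 and Cstdc6 lie on chromosome 16 in a cluster of near-identical copies, and the array names their probes LOC268885 and Stfa1, so signal may be shared among copies. Stfa2l1 had levels of 5.64, -0.08, 3.82, 3.0 and 4.83 in KI tumours 1 to 5, 0.11 and -0.05 in the NIC pools, and 0.21 and 0.37 in the normal glands. Cstdc6 had 5.21, 0.06, 2.90, 3.01 and 3.70 in the KI tumours, 1.21 and 0.45 in the NIC pools, and 0.50 and 0.31 in the normal glands. In both genes the other 4 KI tumours lay above every NIC pool and normal gland, and KI tumour 2 lay below the means of all of them. The Cy3 array of NIC pool 1 was lower still, at -0.09 for Stfa2l1 and -0.24 for Cstdc6, so the place of KI tumour 2 below NIC pool 1 depends on the array read. All 3 probes of Cstdc6 placed the tumours alike, with KI tumour 1 highest at 5.08 to 6.07 and KI tumour 2 lowest at -0.03 to 0.06. On the KI arrays the median reference signal of Stfa2l1 was 181, and its mean sample signal in KI tumour 2 was 222. The 99th percentile of the negative controls reached 150 and 148 in these channels, so the size of the Stfa2l1 ratios is uncertain. The KI mean of Stfa2l1 was 3.15 ± 1.35 above normal and 3.42 ± 1.35 above NIC. For Cstdc6 the same differences were 2.57 ± 1.16 and 2.14 ± 1.16, and without KI tumour 2 they were 3.30 and 2.87. Without NIC pool 1 and normal gland 2 the differences were 3.23 and 3.49 for Stfa2l1 and 2.47 and 2.52 for Cstdc6, and Cstdc6 differed from NIC by 1.42 with NIC pool 1 read by Cy5 alone.

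Bst1 encodes a surface enzyme of the CD38 family, first known from bone marrow stroma and also present on myeloid cells. Its level was 3.48, -2.31, 0.43, 0.87 and 0.19 in KI tumours 1 to 5, -2.45 and -1.37 in the NIC pools, and -1.14 and -0.72 in the normal glands. KI tumour 1 stood above the other KI tumours, and KI tumour 2 lay among the NIC pools and below both normal glands. The Cy3 array of normal gland 2, at 0.53, lay above KI tumours 3 and 5. The KI mean was 1.46 ± 1.29 above normal and 2.44 ± 1.29 above NIC. Without NIC pool 1 and normal gland 2 these were 1.67 and 1.90, and against normal gland 2 by its Cy3 array alone 0.83.

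Lcn2 encodes the iron-carrier binding protein of neutrophil granules, and its levels could not be compared. The sample channel was saturated on all 10 KI arrays and the reference channel on 1 of them. The ratios came out at 2.08, 2.66, 2.14, 1.89 and 2.09 in KI tumours 1 to 5, 2.65 and 2.03 in the NIC pools, and 2.01 and 1.87 in the normal glands. A saturated sample channel makes a KI ratio a lower bound, and where the reference is saturated too the ratio bounds nothing. No order of the KI tumours, overlap, difference or fold is therefore read for Lcn2. The arrays of NIC pool 2 gave 4.09 by Cy5 and -0.03 by Cy3.

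Among the signals, Il1b, the gene of interleukin 1 beta, had levels of 4.26, 0.61, 3.78, 2.37 and 3.80 in KI tumours 1 to 5. It had 0.22 and 0.01 in the NIC pools, and -0.24 and 0.11 in the normal glands. By the means of the dye pairs all 5 KI tumours lay above both other groups, KI tumour 2 by the narrowest margin. The Cy3 array of normal gland 2 (1.27) and the Cy5 array of NIC pool 1 (1.22) lay above KI tumour 2, so its place depends on the array read. The KI mean was 3.03 ± 0.92 above normal, an 8.16-fold difference, and 2.85 ± 0.92 above NIC. These were 3.20 and 2.95 without NIC pool 1 and normal gland 2.

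Cxcl5 encodes a CXC chemokine made mainly by epithelial cells, and it spanned the widest range. Its level was 1.84, -5.17, -2.47, -1.43 and -1.91 in KI tumours 1 to 5, -5.35 and -5.42 in the NIC pools, and -5.55 and -5.58 in the normal glands. KI tumour 2 lay just above the NIC pools and normal glands by the means of the dye pairs, and the other KI tumours lay well above it. The range within the KI group was 7.01 log2 units, or 129-fold. Its low end, KI tumour 2, had a mean sample signal of 165, where the 99th percentile of the negative controls reached 148. The Cxcl5 signal there was thus near background, and the size of the range and of the differences is uncertain. The KI mean was 3.74 ± 1.54 above normal and 3.55 ± 1.54 above NIC. Leaving out NIC pool 1 and normal gland 2 gave 3.72 and 3.59.

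Cxcl1 and Cxcl2, neighbours of Cxcl5 on chromosome 5, varied less. Cxcl1 had levels of -0.65, -2.23, -1.81, -1.45 and -1.87 in KI tumours 1 to 5, -3.35 and -2.59 in the NIC pools, and -2.96 and -2.75 in the normal glands. All KI tumours lay above both other groups, and the KI mean was 1.25 ± 0.41 above normal and 1.37 ± 0.41 above NIC. Cxcl2 had levels of 0.25, -0.69, -0.31, 0.48 and 0.92 in the KI tumours, -1.21 and -1.13 in the NIC pools, and -0.67 and -0.89 in the normal glands. Every KI tumour lay above both NIC pools, and KI tumour 2 lay between the normal glands. The KI mean of Cxcl2 was 0.91 ± 0.40 above normal and 1.30 ± 0.40 above NIC. Without NIC pool 1 and normal gland 2 the differences were 1.36 and 0.99 for Cxcl1 and 0.80 and 1.26 for Cxcl2.

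**Figure D2:**
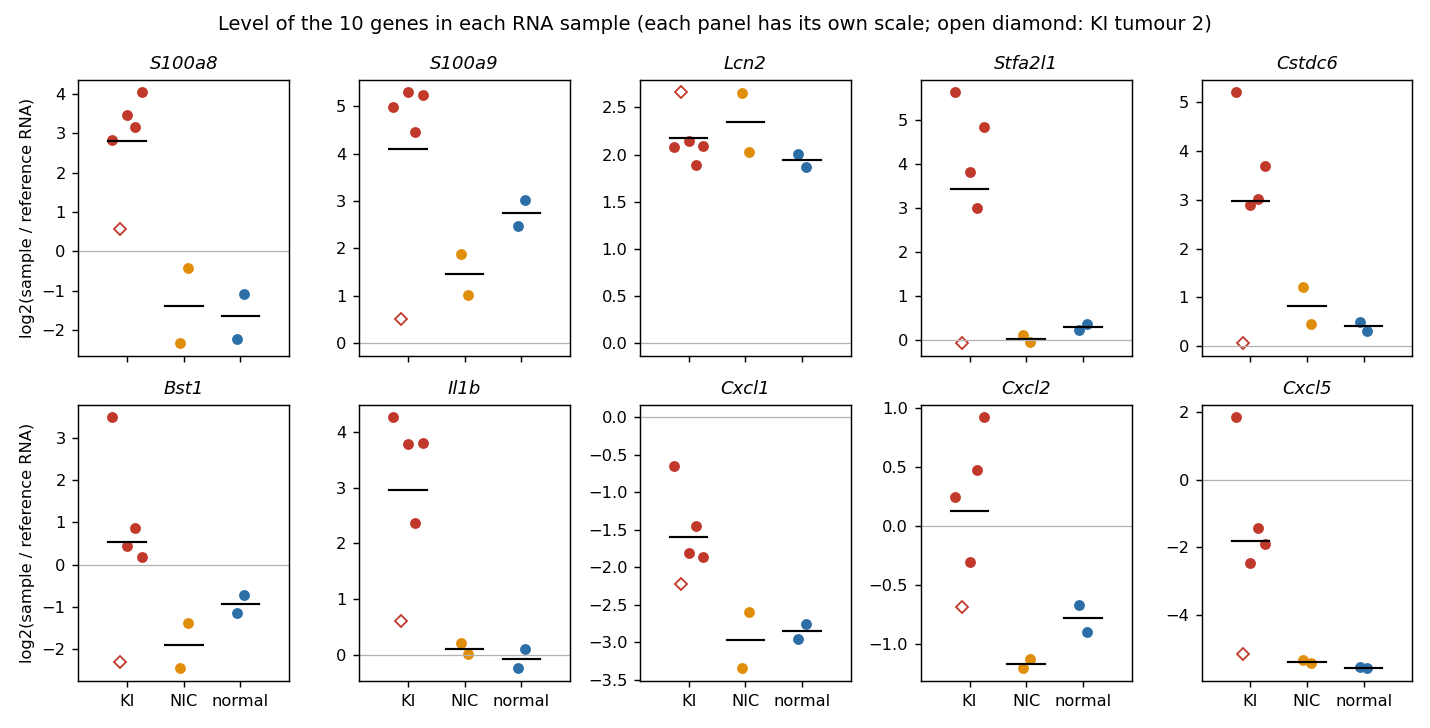
Level of each of the 10 genes as log2 of sample over reference (vertical axis, own scale per gene) in the 5 KI tumours, 2 NIC pools and 2 normal glands. Points are RNA samples, the open diamond is KI tumour 2, and lines are group means. The KI values of Lcn2 are saturated. KI tumour 2 is the lowest KI tumour for the other 9 genes, at 0.51 for S100a9 against 4.45 to 5.29 in the other KI tumours.

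Counted over the 9 genes other than Lcn2, the KI mean was above normal for 9 and above NIC for 9, also without NIC pool 1 and normal gland 2. The median difference over these 9 was 2.57 against normal and 2.64 against NIC. By the limma fit over all genes at an adjusted p under 0.05, S100a8, Il1b and Cxcl1 were called higher in KI than in normal, where 17.8% of all genes were called higher and 24.9% lower. S100a8 alone was called higher in KI than in NIC, where 2.92% of all genes were called higher and 3.28% lower. No member was called between NIC and normal (2 at an unadjusted p under 0.05), where 8.78% were called higher and 9.81% lower, and the NIC mean was the higher one for 4 of the 9. By the means of the dye pairs, every KI tumour lay above both normal glands for S100a8, Il1b, Cxcl1 and Cxcl5, which held for 23.7% of all genes. For these 4 and Cxcl2 every KI tumour lay above both NIC pools, which held for 16.4% of all genes. Since the values of these contrasts chose the members, nothing is read from these counts.

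KI tumour 2 divided the group. Over the 9 members other than Lcn2 it was the lowest of the 5 KI tumours each time. By the means of the dye pairs, 9 of these 9 lay above every NIC pool and normal gland in each of KI tumours 1, 3, 4 and 5. In KI tumour 2 it was 4. Over all genes the share above every other sample was 21.1%, 17%, 21.2%, 19.9% and 20.5% in KI tumours 1 to 5. The highest tumour was KI tumour 1 for Stfa2l1, Cstdc6, Bst1, Il1b, Cxcl1 and Cxcl5, KI tumour 5 for S100a8 and Cxcl2, and KI tumour 3 for S100a9. The SD over the 5 tumours had a median of 1.87 log2 units over these 9 members and 0.15 over all genes. The members were chosen with these values known, so nothing is read from the counts or spreads set beside those of all genes. Of the 9, Cxcl1 and Cxcl2, at 0.60 and 0.64, had an SD below 1.3.

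**Figure D3:**
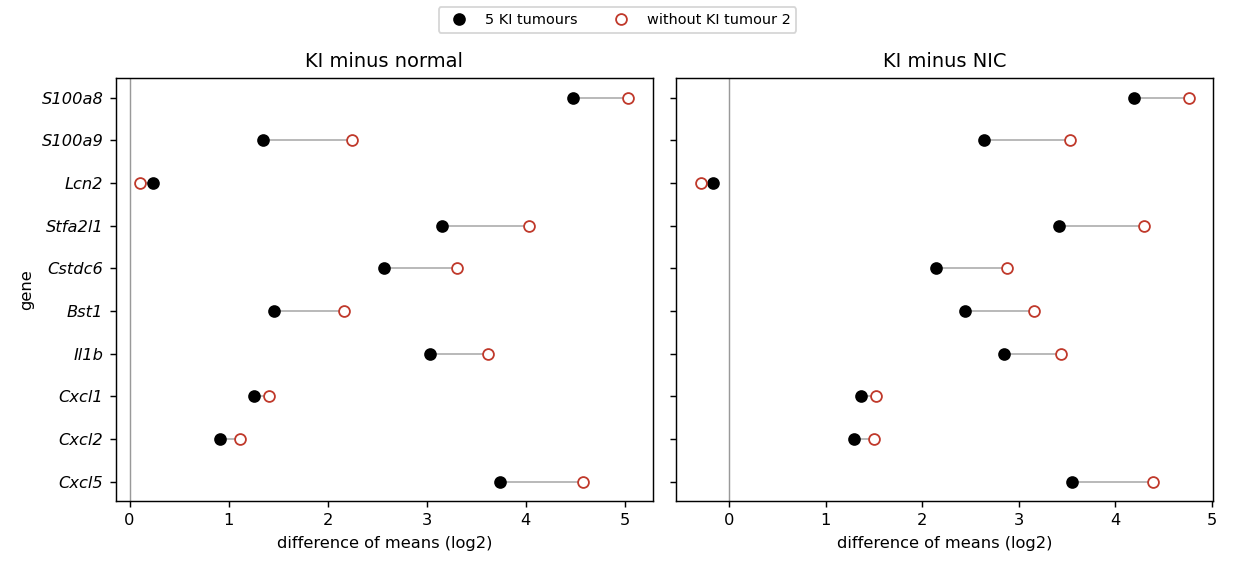
Difference of group means (horizontal axis, log2) for each of the 10 genes, KI minus normal at left and KI minus NIC at right, with all 5 KI tumours (filled) and without KI tumour 2 (open). Leaving out KI tumour 2 moved the median over the 9 genes other than Lcn2, whose KI values are saturated, to 3.30 against normal and 3.43 against NIC.

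Other neutrophil genes were looked at through a list of 40, of which 36 were measured and none is a member. Ly6g, Cebpe, Stfa1 and BC100530 had no probe under these names. By limma with Benjamini-Hochberg adjustment over all genes, 6 of the 36 rose and 3 fell in KI against normal. Of all genes, 17.8% rose and 24.9% fell. The median difference was 0.41 over the list. Padi4, the enzyme that citrullinates histones during release of neutrophil traps, rose by 2.60 ± 0.14 (adjusted p = 4.5e-05). Its level was 2.31, 2.10, 2.47, 2.00 and 2.18 in KI tumours 1 to 5 and -0.52 and -0.26 in the normal glands, so KI tumour 2 did not stand apart there. Its second probe differed by 0.59. Asprv1, a protease of skin that mouse neutrophils also make, rose by 2.92 ± 0.61 (adjusted p = 0.0073). Pglyrp1, a granule protein that binds bacterial wall, rose by 1.60 ± 0.19 (adjusted p = 0.00076), and Cybb, the core of the phagocyte oxidase, rose by 2.09 ± 0.43 (adjusted p = 0.0067), with 0.13 for its second probe. Chil3, a chitinase-like protein of myeloid cells, rose by 1.08 ± 0.24 (adjusted p = 0.010), and Mpo rose by 0.42 ± 0.11 (adjusted p = 0.019). Hp, the haptoglobin gene, fell by 1.37 (adjusted p = 0.036), and Trem1 fell by 0.46 (adjusted p = 0.0040), with 0.14 for its second probe. Without KI tumour 2 the count was 12 higher and 3 lower, beside 17.9% and 23.9% of all genes. Without normal gland 2 it was 5 in all, and Cybb, Chil3, Mpo and Hp were no longer called (adjusted p = 0.054, 0.053, 0.058 and 0.13).

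In KI against NIC, 2 of the 36 rose and 1 fell, beside 2.92% and 3.28% of all genes, with a median difference of 0.87 over the list. Mmp9, a gelatinase of neutrophils and macrophages, rose by 2.00 ± 0.22 (adjusted p = 0.0050), and Padi4 rose by 1.48 ± 0.14 (adjusted p = 0.0035). A second probe gave 2.15 for Mmp9 and 0.68 for Padi4. Cd177, a neutrophil surface protein, fell by 2.11 ± 0.33 (adjusted p = 0.014). The fall of Cd177 was not called with NIC pool 1 read by its Cy5 array alone (adjusted p = 0.060). Without KI tumour 2 the count was 6 higher and 1 lower, beside 4.1% and 3.17% of all genes. Without both NIC pool 1 and normal gland 2 it was 1 higher and 0 lower. In NIC against normal, 5 rose and 4 fell, and with either NIC pool left out limma called no gene of the list (12 at an unadjusted p under 0.05). Of all genes, 8.78% rose and 9.81% fell in NIC against normal. Cd177 rose by 2.83 ± 0.37 (adjusted p = 0.025), and Pglyrp1, Gca, Asprv1 and Padi4 rose by 1.12 to 1.53. A second probe gave 1.34 for Gca and -0.09 for Padi4. Wfdc21, Hp and Mmp9 fell by 2.88, 2.54 and 2.31.

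Neutrophil-defining genes gave a divided picture. Mpo and Elane, granule enzymes made early in the marrow, stayed between -0.26 and 0.47 in all samples. Camp and Ngp, secondary granule genes, were high in KI tumour 5 alone, at 2.55 and 1.89, while the other samples lay between -0.12 and 0.32. On the 10 KI arrays, the reference channel exceeded the negative controls on 8 for Elane, 7 for Camp and 9 for Ngp. Their reference signal was thus near background, and the size of their ratios is uncertain. Csf3r, the receptor for granulocyte colony-stimulating factor, had 2.68, 0.71, 2.06, 1.32 and 2.75 in KI tumours 1 to 5, 1.21 and 0.78 in the NIC pools, and 1.31 and 1.25 in the normal glands. Cxcr2 had 0.50, -0.39, 0.16, -0.06 and 0.54 in the KI tumours, -0.31 and -0.55 in the NIC pools, and -0.41 and -0.23 in the normal glands. Both receptors were lowest among KI tumours in number 2. Ltf, the lactoferrin gene, which mammary epithelium also makes, lay between 1.75 and 3.78 in all samples, but its sample channel was saturated on 7 of the 10 KI arrays, so no comparison is read from it. The label of these genes as neutrophil genes thus rests on what they are known for. Ly6g was unmeasured, Mpo was near 0, and Elane was near 0 with its signal near background.

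Several further genes, named here after their values were seen, were low in KI tumour 2 and high in some or all other KI tumours, with no call in the fit of all 5 KI tumours. Other genes of the neutrophil list were not. Cd177 was highest in KI tumour 2, at 0.70. Pglyrp1 and Gca were higher there (2.94 and 1.46) than in KI tumours 1, 4 and 5. Of the 36 list genes, 18, 6, 21, 14 and 22 lay above every NIC pool and normal gland in KI tumours 1 to 5. Over all genes the shares were 21.1%, 17%, 21.2%, 19.9% and 20.5%. Stfa2 had 5.68, -0.01, 3.27, 3.04 and 4.64 in KI tumours 1 to 5, 0.86 and 0.16 in the NIC pools, and 0.06 and 0.09 in the normal glands. Stfa3 had 5.15, -0.07, 2.22, 2.94 and 3.29 in the KI tumours, 0.82 and 0.12 in the NIC pools, and 0.10 and 0.38 in the normal glands. Retnlg, a resistin-like gene of mouse neutrophils, had 2.34, -0.06, 3.53, 0.46 and 4.47 in the KI tumours, 0.27 and 0.05 in the NIC pools, and 0.93 and 1.93 in the normal glands. KI tumour 4 thus lay below both normal glands for Retnlg. Csf3, the growth factor gene itself, had 3.93, 0.01, 5.36, 0.87 and 5.13 in the KI tumours, and between -0.03 and 0.07 in the NIC pools and normal glands. Csf3 was thus high in KI tumours 1, 3 and 5, the 3 tumours in which Csf3r and Retnlg were also highest. Stefin copies share sequence with the members, so Stfa2 and Stfa3 are not separate evidence. The reference channel exceeded the negative controls on 6 of the 10 KI arrays for Stfa2 and on 9 for Retnlg and Csf3. The size of these ratios is therefore uncertain.

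**Figure D4:**
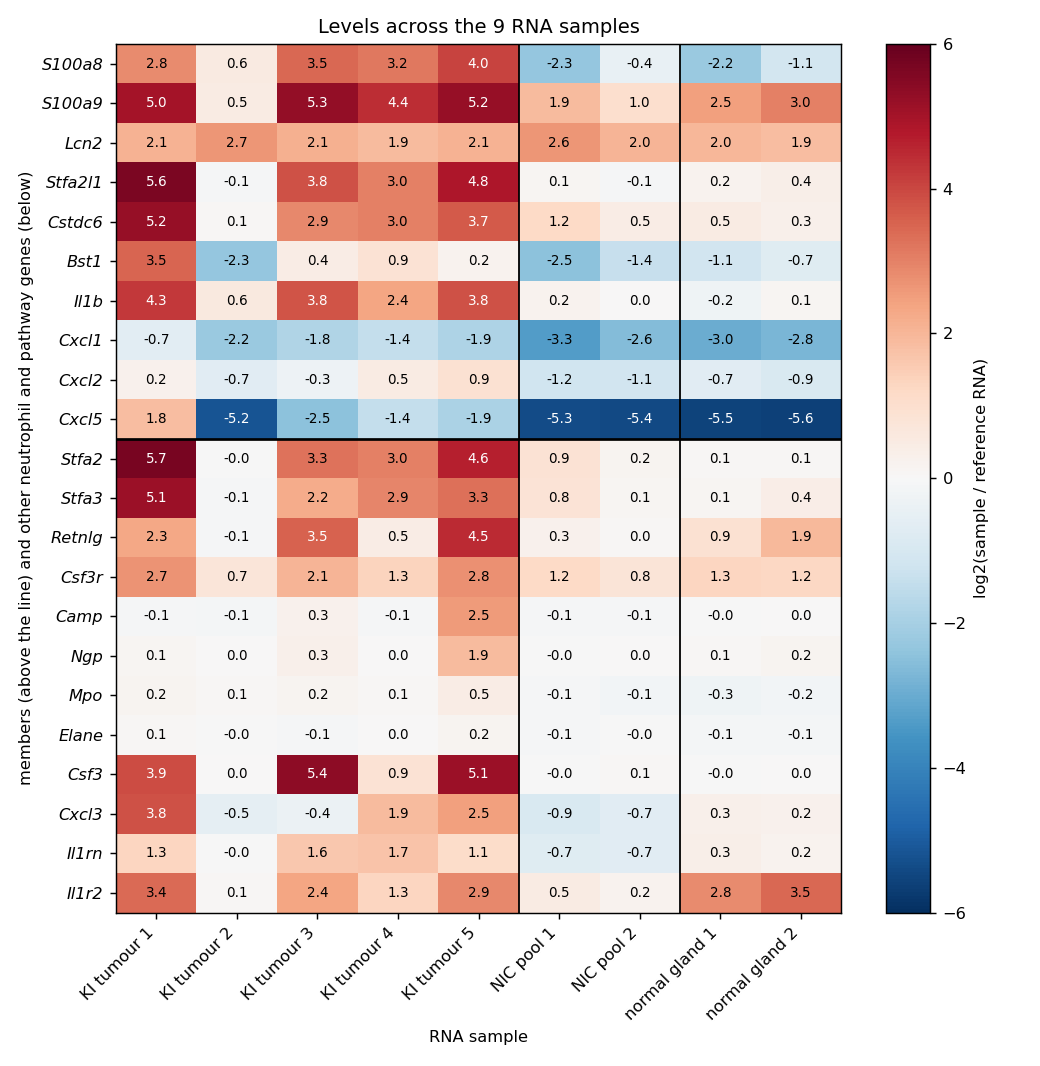
Levels as log2 of sample over reference (colour, with values to 1 decimal) of the 10 genes and of 12 other neutrophil and pathway genes in the 9 RNA samples, KI tumours at left. KI tumour 2 is near 0 for the stefins, Retnlg and Csf3, and Camp (2.55) and Ngp (1.89) are high in KI tumour 5 alone.

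Of 34 genes of neutrophil recruitment and interleukin 1 signalling, 4 rose and 7 fell in KI against normal, beside 17.8% and 24.9% of all genes. Il1rap, the shared subunit of the interleukin 1 receptor, rose by 4.37 ± 0.30 (adjusted p = 0.00012), though its 4 probes ranged from 0.29 to 4.37. Nfkbiz, an NF-kappa B cofactor induced by interleukin 1, rose by 1.67 ± 0.35 (adjusted p = 0.0076), and by 0.98 without normal gland 2. Ccl4, a chemokine for myeloid cells and lymphocytes, rose by 1.17 ± 0.39 (adjusted p = 0.043, with 0.16 without normal gland 2 and 0.061 without NIC pool 1). Cxcl15, a CXC chemokine best known from lung, fell by 2.89 ± 0.16 (adjusted p = 4.0e-05), and Il18 and Icam1 fell by 1.63 and 1.55 (adjusted p = 0.0012 and 0.017, the call of Icam1 being lost without normal gland 2 at an adjusted p of 0.13). In KI against NIC, Il1rn, the natural antagonist of the interleukin 1 receptor, rose by 1.84 ± 0.42 (adjusted p = 0.048, with 0.21 without NIC pool 1 and 0.067 without normal gland 2), with the KI levels at 1.30, -0.00, 1.62, 1.71 and 1.10. Tlr4 rose by 1.09 (adjusted p = 0.028, and 0.15 without NIC pool 1), Casp1 fell by 1.05 (adjusted p = 0.019, and 0.12 without it), and Slc22a17, a receptor for the Lcn2 product, fell by 0.93 (adjusted p = 0.0025). In NIC against normal 2 rose and 9 fell by limma, beside 8.78% and 9.81% of all genes. Among them were Il1rap, higher by 3.37 (adjusted p = 0.025), and Cxcl15, Il1r2 and Icam1, which fell by 3.0, 2.78 and 2.47. A second probe gave 0.30 for Icam1 in KI against normal. In KI against NIC it gave 0.33 for Il1rn, -0.04 for Tlr4 and -2.13 for Slc22a17. In NIC against normal it gave -2.01 for Il1r2 and -0.58 for Icam1, and the 4 probes of Il1rap ranged from 0.15 to 3.37.

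Relatives of the members were listed as well. Of 13 other S100 genes, 3 rose and 2 fell in KI against normal, limma called none in KI against NIC (6 at an unadjusted p under 0.05), and 2 rose and 1 fell in NIC against normal. Over all genes, 17.8% rose and 24.9% fell in KI against normal. The shares were 2.92% and 3.28% in KI against NIC, and 8.78% and 9.81% in NIC against normal. S100a14, an epithelial S100 gene, rose by 2.02 ± 0.69 in KI against normal (adjusted p = 0.049), with levels of 3.10, 0.80, 3.38, 3.24 and 2.91 in KI tumours 1 to 5. S100a16 rose by 1.69 against normal in KI (adjusted p = 0.016) and by 2.93 in NIC (adjusted p = 0.030). Of 8 other CXC chemokines, Cxcl12 and the B cell chemokine Cxcl13 fell by 3.32 and 3.08 in KI against normal (adjusted p = 0.0011 and 0.024). A second probe of Cxcl12 gave -1.34 in KI against normal and -1.89 in NIC against normal. Without normal gland 2 the calls of S100a14, S100a16 and Cxcl13 in KI against normal were lost (adjusted p = 0.083, 0.13 and 0.067), and that of S100a14 also without NIC pool 1 (adjusted p = 0.073). In NIC against normal Cxcl12, Cxcl13 and Cxcl9 fell by 4.15, 3.65 and 2.88, and with either NIC pool left out limma called no gene at all in that comparison (6398 without NIC pool 1 and 6976 without NIC pool 2 at an unadjusted p under 0.05). Cxcl10 and Cxcl11, interferon-induced and acting on T cells, stood apart from the members, with 2.40 and 5.25 in KI tumour 1 and 2.50 and 2.57 in KI tumour 3. Cxcl11 was above the negative controls on 7 of 10 sample channels and 6 of 10 reference channels of the KI arrays, so its levels in the other KI tumours are near background and the size of its ratios is uncertain.

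Markers of other cells moved with the members in part. Over 18 macrophage markers the median level was 1.60, 0.62, 1.58, 1.07 and 1.66 in KI tumours 1 to 5, 0.71 and 0.21 in the NIC pools, and 1.19 and 1.16 in the normal glands. Among 18 measured markers of squamous epithelium the median stayed between 0.08 and 0.28 in all samples. Krt6a, a keratin of stressed epithelium, had 2.42, 0.51, 2.70, 2.42 and 2.34 in the KI tumours. It had 0.74 and 0.10 in the NIC pools, and 0.12 and 0.32 in the normal glands. Krt13 had 2.20, 2.42, 2.04, 3.08 and 2.56 in the KI tumours, so KI tumour 2 did not stand apart there. Its levels were 1.72 and 2.24 in the NIC pools, and -0.32 and -1.05 in the normal glands. Its 2 probes disagreed, with differences of 0.91 and 3.14 in KI against normal and of -0.51 and 2.66 in NIC against normal. Calml3 was highest in KI tumour 2, at 3.64. Luminal markers had medians of 2.56 to 3.0 in KI tumours, 2.98 and 3.16 in NIC pools, and 0.09 and 0.15 in normal glands, and adipocyte markers were near 0 in tumours and at 3.88 and 3.60 in normal glands. Against normal, 8 of 11 adipocyte markers fell in KI and 8 in NIC, and 10 of 11 luminal markers rose in KI and 9 in NIC. Lymphocyte markers fell for 11 of 15 in KI against normal, and mast cell and eosinophil markers for 7 of 12. Over all genes against normal, 17.8% rose and 24.9% fell in KI, and 8.78% rose and 9.81% fell in NIC. The part of these cells in the members' levels was not tested.

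Among the 10 non-member genes most like S100a8 over the 9 RNA samples, by the root mean square distance of levels centred on each gene's own mean, were Cwh43 (0.69), Sh2d5 (0.87), Hbegf (0.93), Dmrta2, Sdc1, Klk6, Inhba and Mmp13 (1.12). Hbegf encodes an epidermal growth factor receptor ligand. Hbegf had 1.04, -1.34, 0.89, 1.03 and 0.57 in KI tumours 1 to 5, -2.29 and -1.56 in the NIC pools, and -3.66 and -3.38 in the normal glands. All KI tumours lay above both other groups, with KI tumour 2 the lowest of the 5. Hbegf was picked for its likeness to S100a8 over these same samples, so this shared order is not separate evidence. Of the members, Il1b at 1.03 and Stfa2l1 at 1.17 were nearest to S100a8, and S100a9 lay farther off at 1.54. Without NIC pool 1 and normal gland 2, 8 of the 10 nearest genes were shared.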

How the data were processed

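Expression was measured on 2-colour Agilent arrays in 9 RNA samples, each on a dye pair. The deposited values are log2 ratios, sample over reference, and how the authors made them is not given in the sources used here beyond RMA, which the submitters' processing notes name with no role. For the KI arrays scanner files were used too: per the file headers, Agilent Feature Extraction software wrote their channel intensities and a log10 ratio. Each KI column correlated with the log2 ratios from its own scanner file at r = 0.982 to 0.988. Probes of the other arrays, which are under another platform record, were named by spot number from the KI files. On 7 KI arrays the label protocol names the opposite dyes from the label fields, which were followed.

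The 2256 control spots were left out. Probes were named through RefSeq, and each of the 28919 genes was read from the probe that was brightest on the KI arrays. The dye pair was averaged and tested with limma 3.58.1 in R 4.3.3 (lmFit, eBayes, Benjamini-Hochberg over all genes, called at 0.05). NIC against normal was fitted on its 4 RNA samples and the KI comparisons on all 9. On simulated data with 4-fold changes (2 log2 units) the fits recovered 62% of changed genes in NIC against normal, 80% in KI against normal and 72% in KI against NIC. The simulation changed far fewer genes than were called in the data and gave all groups a common spread per gene. Its rates may therefore not hold for the real data. All members were flagged well above background on all 10 KI arrays, though Cxcl5 in KI tumour 2 and Stfa2l1 came near the negative controls. Labels name each gland, pool and tumour separately; p-values cover only the spread among the 9 RNA samples, and their small number limits the precision.

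The members and gene lists were chosen with earlier results of these data known. List genes were named by rule: of called genes changed at least 2-fold, up to 4 with the largest differences each way, or all called genes where 4 or fewer. Protein sequences were not used here. A few genes that the rules name are not reported here. Alternatives covered the dye, probe choice, filter, scaling, fit and each left-out sample.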

Additional observations from a re-analysis of the deposited data

Results flagged for a closer look

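S100a9 in KI tumour 2 stood apart from the other KI tumours, at 0.51 on the log2 scale, with the nearest KI tumour at 4.45. Chance alone would single out about 1 in 20 groups set in advance. S100a9 was chosen with its values in these samples known, so that rate does not apply to it. The cause was not tested. Both arrays of this tumour gave low values, with a gap of 0.23 between them.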

How the results depend on the processing

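The members' differences kept within 1 SD of their reported value in 452 of 524 recomputations and moved in 72, mostly with 1 dye alone, with arrays scaled to 1 spread, or with 1 array of NIC pool 1 or normal gland 2. No called difference changed sign. Of 28919 genes, those called in NIC against normal (5376) became 2042 with Cy3-labelled samples only, 3424 above the median signal, 10396 with all 9 RNA samples in the fit, 10633 with the RNA sample as a random block, 3108 with NIC pool 1 and 2279 with normal gland 2 read by Cy3 alone, and 0 to 4232 with 1 sample left out, 0 without either NIC pool. KI against normal (12346) became 7966 scaled and 6496 above the median signal, and 9270 to 12067 with 1 sample left out. KI against NIC (1792) became 882 above the median signal, 4010 with the block, 458 without NIC pool 1 and normal gland 2, and 503 to 2101 with 1 sample left out, the lowest without NIC pool 1. The 9 neutrophil genes called in NIC against normal became 4 with either dye alone, 18 with the block, 5 with NIC pool 1 by Cy3 alone, and 0 to 9 with 1 sample left out. In KI against normal (9) they became 16 with the block, 4 without both samples, and 5 to 15 with 1 left out, 15 without KI tumour 2. In KI against NIC (3) they became 10, 1, and 2 to 7 in the same order, 7 without KI tumour 2. The 11 recruitment genes called in NIC against normal became 4 with Cy3 alone, 4 with normal gland 2 by Cy3 alone, 7 without both samples, and 0 to 9 with 1 left out. In KI against normal (11) they became 6 scaled and 7 to 15 with 1 left out. In KI against NIC (4) they became 11 with the block, 1 without both, and 1 to 6 with 1 left out. The causes were not tested. A lone sample left in a group was assumed to vary like the others. The single-array and 7-sample settings were chosen after seeing the data. No paired analysis was possible because replicate numbers only name the RNA samples. Lcn2 was limited by saturation.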
